A study of Mus musculus with 12 samples.

Results

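The genotype by imiquimod interaction asks whether imiquimod cream moved a transcript by a different amount in NF-kB1-deficient than in wild-type mice. It is the imiquimod minus sham difference of NF-kB1-deficient mice, minus the same difference of wild-type mice, and it draws on all 12 of the 12 libraries. The cells were gamma delta T cells bearing the Vg4 and Vd4 chains, taken from skin-draining lymph nodes of C57BL/6 mice. The 4 groups, of 3 libraries each, were wild type with sham cream, NF-kB1 deficient with sham cream, wild type with imiquimod cream and NF-kB1 deficient with imiquimod cream. The labels give neither the age of the mice, the allele behind the deficiency nor the cells that lack NF-kB1. They name no separate animals behind the libraries of a group, so each p-value speaks only of the spread among these libraries, which may be technical. For each gene that spread was estimated in large part from other genes.

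Imiquimod activates a Toll-like receptor and is put on mouse skin to produce an inflammation that resembles psoriasis. Gamma delta T cells of this subset leave the draining lymph node to make cytokines in inflamed skin. NF-kB1 is made as the precursor p105, an inhibitor that holds NF-kB dimers in the cytoplasm, and is cut to p50, a subunit that binds kB sites in DNA. Lymphocytes that leave quiescence lower antiproliferative transcripts and raise those for nucleoli, ribosomes, the cytoskeleton and DNA copying.

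The libraries were shallow. The spacing of low values implied 20507 to 69454 reads on genes, and the depth was unequal across the contrast: 20507 to 35611 reads for wild-type imiquimod against 45957 to 67042 for NF-kB1-deficient imiquimod. In the 5 deepest libraries 1 read was worth 0.488 to 0.735, and since no value under 1 is listed, their genes with 1 read are listed at 0. In wild-type sham replicate 2, where 1 read was worth 0.488, this also holds for genes with 2 reads. In the 5 libraries 271 to 524 genes lay at 3 and at 5 of these steps, 281 to 483 at 4, and 42 to 75 midway between steps. Hence 1 step was taken as 1 read. The part of this gap in the results was not tested. Setting every value under 2 to 0 in all libraries, to give them a like floor, kept all 7 calls described below. The lowest value of any called gene was 4.72, for Btg1, so this floor changed no value of these genes and says nothing of the gap. The labelled cells were checked by their markers. Tcrd, the T cell receptor delta locus, was above 0 in all 12 libraries, as were Thy1 and Tcrg-C2, whereas Tcrg-V4 and Trdv4, the variable segments that would show the named chains, were listed at 0 in all of them. Trdc, Tcrg-C1 and Tcrg-C4 were also at 0 in all 12, and Cd3d, Cd3e, Sox13 and Blk were at 0 in some. Of the 18 genes of the identity list 13 were above 0 in any library, so the markers do not show the named subset. Tcrb, the beta chain locus, stood between 57.4 and 103. The B cell gene Cd79a, the myeloid gene Lyz2 and the T helper gene Cd4 were listed at 0 in every library. The CD8 genes were not: Cd8b1 reached 17.3 in NF-kB1-deficient sham replicate 1 and Cd8a 2.59 in NF-kB1-deficient imiquimod replicate 3. Tcrb, which is in no marker list here, took 0.141% to 0.301% of a library. No marker list of other cells took more than 0.153%, the highest being erythroid cells and platelets in an NF-kB1-deficient imiquimod library. The gamma delta T and T cell identity list summed to 93.6 to 132 in wild-type imiquimod, 161 to 190 in NF-kB1-deficient imiquimod, 139 to 171 in wild-type sham and 109 to 230 in NF-kB1-deficient sham libraries. Its part in the results was not tested. In such bulk samples, fewer cells of a type and less RNA per cell cannot be told apart.

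The interaction was called for 7 of 1571 genes by limma at an adjusted p under 0.05 (0.446% of those tested). It was positive for 3 (0.191%) and negative for 4 (0.255%), where positive means that imiquimod minus sham was higher in the NF-kB1-deficient genotype. The long noncoding RNA Malat1, the antiproliferative gene Btg1 and the splicing-associated gene Rbm25 were the positive ones. The negative ones were Tuba1b, an alpha tubulin, Ncl, the nucleolar protein nucleolin, Serbp1, an mRNA-binding protein that associates with ribosomes, and Tagln2, the actin-binding protein transgelin 2. Values are normalized values, which are the deposited values taken off their log scale, and differences are on the scale of log2(normalized value + 1). At an unadjusted p under 0.05 there were 169 genes (10.8%), 107 positive (6.81%) and 62 negative (3.95%). With the trend and robust options off, limma still moderates each variance, but toward a common value for all genes. In that setting 0 genes were called by limma, with 151 at an unadjusted p under 0.05.

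**Figure D1:**
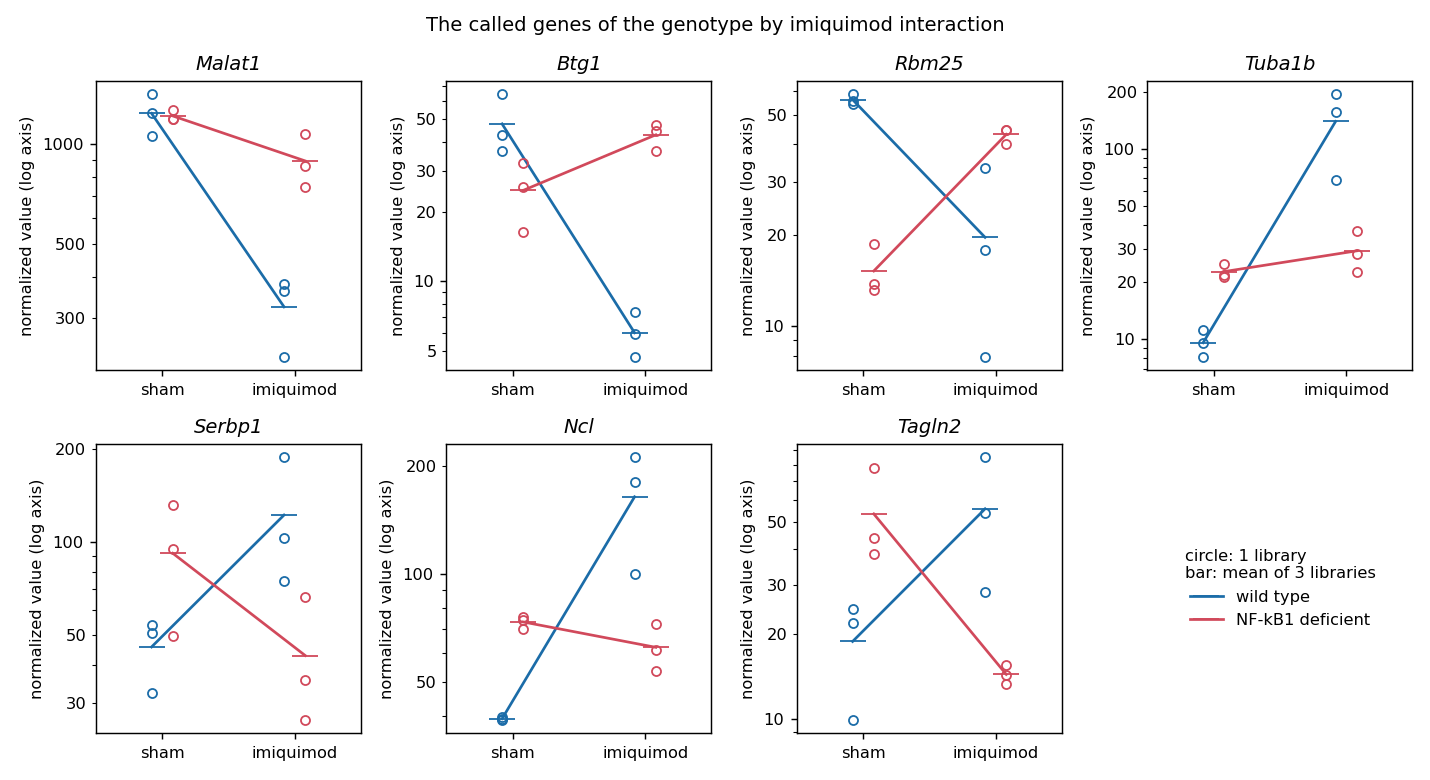
Normalized value on a log axis in sham and imiquimod libraries for the 7 called genes; each circle is 1 library, bars are means of 3 libraries, and lines join the means of a genotype. Wild-type lines are steeper than NF-kB1-deficient lines except for Tagln2, and for 5 genes, Btg1, Rbm25, Tuba1b, Ncl and Tagln2, the genotypes are apart under both creams and change order.

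The promoter windows of 3 genes are shown because p50 binds kB sites and the interaction compares the imiquimod responses of NF-kB1-deficient and wild-type mice. Btg1 had the highest interaction of the called genes, Tagln2 is the called gene whose window holds a kB consensus, and Nfkbia, which encodes the NF-kB inhibitor IkB alpha, is a textbook NF-kB target. The windows are from RefSeq (GRCm38.p6), 300 bases each, read 5′ to 3′ on the gene's strand: chr10:96616751-96617050 on the plus strand for Btg1, chr1:172499996-172500295 on the plus strand for Tagln2 and chr12:55492598-55492897 on the minus strand for Nfkbia. Capitals mark the match to the kB consensus on either strand, of which Btg1 has none.
Btg1: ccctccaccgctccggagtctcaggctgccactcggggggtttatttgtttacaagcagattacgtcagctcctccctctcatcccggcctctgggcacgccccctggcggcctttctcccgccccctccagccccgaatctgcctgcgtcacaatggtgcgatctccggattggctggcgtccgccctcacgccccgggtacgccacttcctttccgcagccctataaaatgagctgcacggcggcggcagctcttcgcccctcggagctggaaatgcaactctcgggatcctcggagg
Tagln2: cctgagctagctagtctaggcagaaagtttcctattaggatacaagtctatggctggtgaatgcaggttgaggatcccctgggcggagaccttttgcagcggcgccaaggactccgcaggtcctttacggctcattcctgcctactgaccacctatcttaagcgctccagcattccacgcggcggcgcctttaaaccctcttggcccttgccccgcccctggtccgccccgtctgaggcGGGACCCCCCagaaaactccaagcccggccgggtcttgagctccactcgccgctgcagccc
Nfkbia: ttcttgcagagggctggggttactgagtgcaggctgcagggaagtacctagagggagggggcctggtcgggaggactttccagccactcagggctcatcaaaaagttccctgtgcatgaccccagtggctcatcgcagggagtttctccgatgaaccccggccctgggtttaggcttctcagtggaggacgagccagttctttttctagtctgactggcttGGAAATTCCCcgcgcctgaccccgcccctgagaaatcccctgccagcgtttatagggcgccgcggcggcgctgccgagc

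The kB consensus was in 1 of the 7 windows of called genes, that of Tagln2, beside 9.1% of the windows of tested genes and 5.8% of all 32851 windows. A match is a run of letters and not a shown binding site, and no match speaks only of this window.

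Malat1, an abundant RNA kept in the nucleus near splicing speckles (Entrez 72289; GRCm38 chromosome 19, 5795690 to 5802672), had the lowest p of all tested genes. It stood at 1417, 1058 and 1246 in wild-type sham and at 229, 363 and 381 in wild-type imiquimod libraries. In the NF-kB1-deficient libraries it stood at 1267, 1196 and 1193 with sham and at 859, 1075 and 742 with imiquimod. Both genotypes were lower under imiquimod with no overlap of libraries, and the wild-type imiquimod libraries lay below the other 9. The interaction was 1.49 ± 0.25 (SE; limma adjusted p = 2.09e-05; 95% interval 1.0 to 1.98), and the genotypes differed by -0.02 under sham and 1.47 under imiquimod. Malat1 was among the 5 highest tested genes in every library. Quantile normalization, which forces the highest genes of all libraries to like values, left 0.51 (adjusted p = 0.814).

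Btg1, whose product holds back proliferation and is known for T cell quiescence (Entrez 12226; chromosome 10, 96617001 to 96622813), had the largest of the positive called interactions. Wild-type libraries were at 64.3, 42.7 and 36.6 with sham and at 4.72, 7.37 and 5.94 with imiquimod. NF-kB1-deficient libraries were at 32.3, 25.5 and 16.4 with sham and at 44.7, 36.7 and 47.4 with imiquimod. The groups within each genotype did not overlap and moved in opposite directions. The interaction was 3.59 ± 0.84 (adjusted p = 0.0113), made of a genotype difference of -0.94 under sham and 2.66 under imiquimod.

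Rbm25, an RNA-binding protein of the splicing machinery (Entrez 67039; chromosome 12, 83632208 to 83683127), changed its order between genotypes. It was at 54.2, 55.5 and 58.4 in wild-type sham and at 13.2, 18.7 and 13.8 in NF-kB1-deficient sham libraries. Under imiquimod it was at 17.9, 33.2 and 7.92 in wild-type and at 40.1, 44.4 and 44.6 in NF-kB1-deficient libraries. The genotypes were thus apart under both creams, with the wild type higher under sham and lower under imiquimod, and wild-type sham lay above the other 9 libraries. The interaction of Rbm25 was 3.12 ± 0.78 (adjusted p = 0.0214), with genotype differences of -1.83 under sham and 1.30 under imiquimod.

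Tuba1b, a subunit of microtubules (Entrez 22143; chromosome 15, 98931429 to 98934390), had the largest of the negative called interactions, -3.29 ± 0.75 (adjusted p = 0.0110). It was at 11.2, 9.52 and 8.07 in wild-type sham, 21.3, 25.0 and 21.8 in NF-kB1-deficient sham, 156, 68.6 and 194 in wild-type imiquimod and 28.0, 37.0 and 22.5 in NF-kB1-deficient imiquimod libraries. Wild-type sham was the lowest and wild-type imiquimod the highest of the 4 groups without overlap, and both NF-kB1-deficient groups lay between them. Genotype differences were 1.17 under sham and -2.12 under imiquimod. Tuba1b has near-identical relatives in Tuba1a and Tuba1c, and how reads shared between them were counted is not given in the sources used here.

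Ncl, which works in ribosome assembly (Entrez 17975; chromosome 1, 86344719 to 86359455), also had wild-type sham as the lowest and wild-type imiquimod as the highest group. It was at 39.7, 39.3 and 39.1 in wild-type sham and at 75.7, 70.1 and 74.2 in NF-kB1-deficient sham libraries. With imiquimod it was at 180, 100 and 212 in wild-type and at 72.4, 53.4 and 61.1 in NF-kB1-deficient libraries. The NF-kB1-deficient groups overlapped each other, and the interaction of Ncl was -2.21 ± 0.51 (adjusted p = 0.0110).

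Serbp1 (Entrez 66870; chromosome 6, 67266979 to 67289302) was at 32.4, 53.7 and 50.7 in wild-type sham and 103, 74.7 and 188 in wild-type imiquimod libraries. In the NF-kB1-deficient genotype it was at 49.3, 94.7 and 131 with sham and at 66.1, 26.5 and 35.7 with imiquimod. Only the wild-type groups were apart between creams, and the genotypes were apart only under imiquimod. Its interaction was -2.40 ± 0.56 (adjusted p = 0.0110).

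Tagln2 (Entrez 21346; chromosome 1, 172500246 to 172507375) is the called gene with the larger response in the NF-kB1-deficient genotype. NF-kB1-deficient libraries were at 38.6, 43.8 and 78.0 with sham and at 14.3, 13.3 and 15.6 with imiquimod. Wild-type libraries were at 24.6, 22 and 9.94 with sham and at 28.3, 53.7 and 85.2 with imiquimod. Groups did not overlap within either genotype, and the directions were opposite. The interaction of Tagln2 was -3.23 ± 0.78 (adjusted p = 0.0137), with a genotype difference of 1.48 under sham and -1.75 under imiquimod.

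These calls lean on single libraries to different degrees. Malat1 was called whichever library was left out (interaction 1.26 to 1.62). Tuba1b lost its call only without wild-type imiquimod replicate 3 (-2.99, adjusted p = 0.0776). Ncl lost it without that library (-1.99, 0.0776), NF-kB1-deficient sham replicate 3 (-2.20, 0.0604) or NF-kB1-deficient imiquimod replicate 2 (-2.10, 0.0569), and Tagln2 without wild-type imiquimod replicate 3 (-2.87, 0.0781), NF-kB1-deficient sham replicate 3 (-2.93, 0.147) or wild-type sham replicate 3 (-2.85, 0.0662). Serbp1 and Btg1 each stayed called without 8 of the 12 libraries, and Rbm25 without 3 of 12. Serbp1 lost its call without NF-kB1-deficient sham replicate 3 (0.147), wild-type sham replicate 1 (0.0632), wild-type imiquimod replicate 3 (0.0776) or NF-kB1-deficient imiquimod replicate 2 (0.0765). Btg1 lost it without NF-kB1-deficient sham replicate 3 (0.0637), wild-type sham replicate 1 (0.0781), or NF-kB1-deficient imiquimod replicate 1 (0.065) or 3 (0.0784). Rbm25 had its highest adjusted p, 0.0945, without wild-type sham replicate 2, and kept an interaction of 2.62 to 3.59. The sign of all 7 was the same in each of the 22 settings tried.

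**Figure D2:**
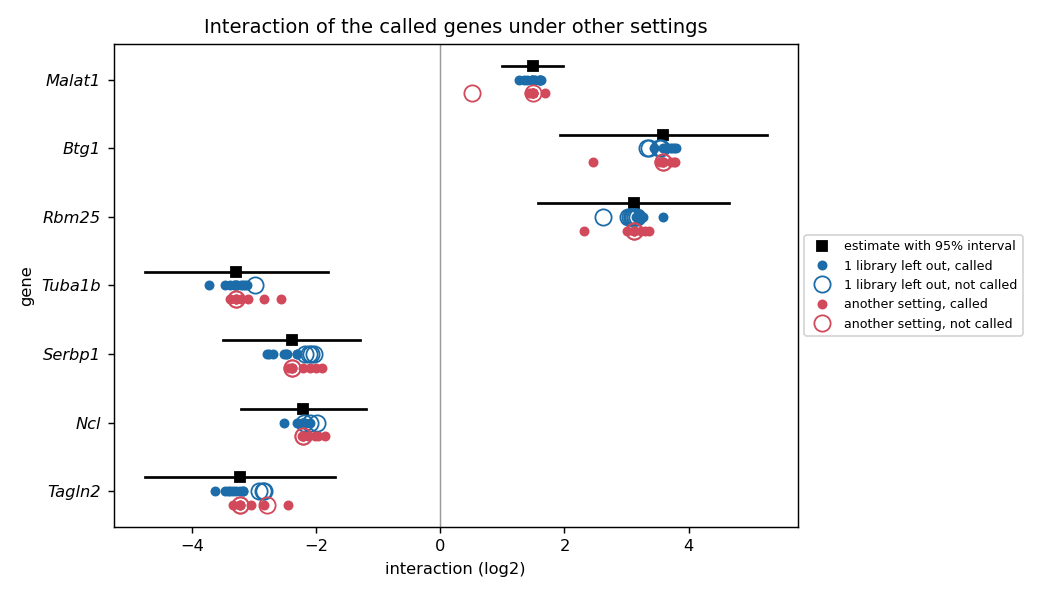
Interaction on the log2 scale for the 7 called genes: squares with the 95% interval, points for each of 12 fits without 1 library, and points for 10 other settings, with rings where the gene was not called. Every value keeps its side of 0; Malat1 falls to 0.51 under quantile normalization and Rbm25 has the most rings.

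Over all 1571 tested genes the median interaction was 0.24, with 55.0% positive. That median moved with the scaling, to 0.41 with equal totals, 0.07 with quantile normalization, 0.54 with a pseudocount of 0.1 and -0.01 with a pseudocount of 10, so the lists below are read against it. Imiquimod minus sham varied more between genes in the wild type (SD over genes 1.54) than in the NF-kB1-deficient genotype (SD 1.0). The wild-type difference was the larger in size in 66.1% of tested genes and in 142 of the 169 genes with an unadjusted p under 0.05, a selection that favours large differences in either genotype. The precision rose with the level. Of the 47 genes with a mean of 50 or over, 4 were called and the median SE was 0.55, whereas of the 902 genes with a mean from 5 to 10, 0 were called by limma (61 at an unadjusted p under 0.05) and the median SE was 1.68.

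**Figure D3:**
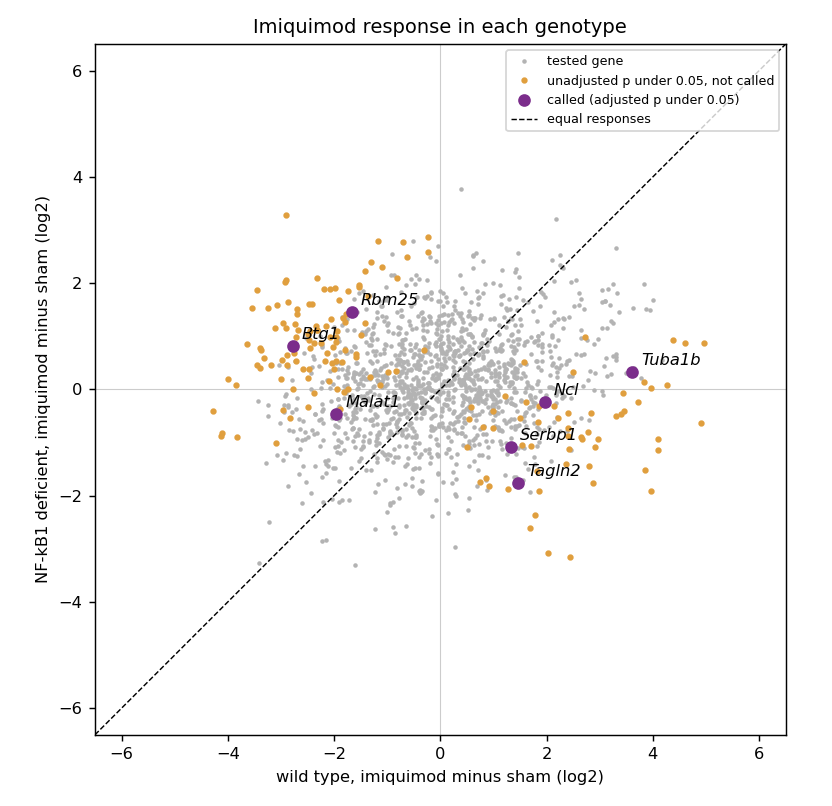
Imiquimod minus sham on the log2 scale in wild-type (x axis) and NF-kB1-deficient (y axis) libraries for 1571 tested genes; the dashed line marks equal responses. The called genes lie off the line, with Malat1, Btg1 and Rbm25 above it and Tuba1b, Ncl, Serbp1 and Tagln2 below it.

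In 5 of the 7 called genes (Tuba1b, Ncl, Btg1, Tagln2 and Rbm25) the genotypes did not overlap under sham nor under imiquimod and took opposite orders, which held for 20 of all tested genes (1.27%). The interaction itself selects for this pattern, so the count is a description. Among the 4 groups, wild-type imiquimod was most often the one apart, but the part of its depth and totals in this was not tested. It had 20507 to 35611 reads and the highest summed values, 36846 to 40618, against at most 34855 in the other libraries. A gene that is low elsewhere can pass the filter only through the group where it is high. The counts of genes above the rest thus describe only the genes that passed. The 3 wild-type imiquimod libraries lay above the other 9 for 70 genes (4.46%), among them Tuba1b and Ncl, and below them for 48 (3.06%), among them Malat1 and Btg1. The NF-kB1-deficient imiquimod libraries lay above the rest for 3 genes (0.191%) and below for 2 (0.127%), the wild-type sham libraries for 10 (0.637%), Rbm25 included, and 7 (0.446%), and the NF-kB1-deficient sham libraries for 7 each way. Imiquimod and sham were apart in both genotypes in opposite directions for Btg1, Tagln2, Rbm25 and 11 uncalled genes (14 in all, 0.891%). One of these, Ikzf1, which encodes the lymphoid transcription factor Ikaros and was picked after its values were seen, stood at 44.2, 37.9 and 33.4 in wild-type sham and 8.38, 9.47 and 21.8 in wild-type imiquimod libraries. In NF-kB1-deficient libraries Ikzf1 was at 22.1, 32.8 and 23.4 with sham and 43.1, 42.4 and 39.3 with imiquimod (interaction 2.26 ± 0.79, adjusted p = 0.257).

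The next positive interactions did not pass. Cd27, a costimulatory receptor of the TNF receptor family, was at 64.3, 32.7 and 34.2 in wild-type sham, 4.19, 6.32 and 3.96 in wild-type imiquimod, 27.6, 23.5 and 18.2 in NF-kB1-deficient sham and 19.4, 76.1 and 21.1 in NF-kB1-deficient imiquimod libraries (3.35 ± 0.93, adjusted p = 0.0813). Wild-type imiquimod was again the group below the rest. H2-K1, which presents peptides to CD8 T cells and shares sequence with other MHC class I genes, was at 48.2, 80.9 and 37.0 in wild-type imiquimod and between 108 and 184 in the other 9 libraries (1.55 ± 0.44, adjusted p = 0.0869). Dusp2, a phosphatase that switches off MAP kinases, had 2.87 ± 0.82 (adjusted p = 0.102). Cd27, H2-K1 and Dusp2 were called among the 242 genes with a mean of at least 20 and with equal totals. Sp100, a component of nuclear bodies, had 4.19 ± 1.32 (adjusted p = 0.194), and Ddx6, a helicase of mRNA decay bodies, 2.71 ± 0.87 (0.208). For 2 more a whole group was listed at 0, so no fold is given. Mga, a partner of the MYC-associated factor MAX, was at 12.3, 10.3 and 19.9 in wild-type sham, at 0 in the 3 NF-kB1-deficient sham libraries, at 0, 6.32 and 0 in wild-type imiquimod and at 3.51, 17.0 and 10.4 in NF-kB1-deficient imiquimod libraries (adjusted p = 0.135). Prkch, protein kinase C eta, was at 0 in the 3 wild-type imiquimod libraries and at 9.81, 8.35 and 20.1 with NF-kB1-deficient imiquimod (adjusted p = 0.208).

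The next negative interactions did not pass either. Nucks1, a chromatin-bound phosphoprotein, was at 5.59, 10.7 and 17.4 in wild-type sham and 37.7, 70.5 and 75.3 in wild-type imiquimod, against 26.5, 13.1 and 23.9 and then 16, 4.19 and 23.4 in NF-kB1-deficient libraries (-3.13 ± 0.94, adjusted p = 0.138). The wild-type imiquimod libraries of Nucks1 lay above the other 9. Ptma, prothymosin alpha, a histone-binding protein of growing cells, had -2.16 ± 0.65 (adjusted p = 0.138), and Pfn1, the actin monomer-binding profilin, -5.09 ± 1.67 (0.208). Pfn1 was at 2.24, 6.83 and 0 in wild-type sham, 21.5, 24.2 and 1.98 in wild-type imiquimod, 15.4, 31.8 and 5.03 in NF-kB1-deficient sham and 4.51, 0 and 0 in NF-kB1-deficient imiquimod libraries, so its size rests on values near 0. For Lig1, Mcm7 and Hnrnpr every wild-type sham library was listed at 0, and no fold is given. Lig1, the DNA ligase of replication, was at 50.3, 14.7 and 31.7 in wild-type and 5.51, 1.40 and 0 in NF-kB1-deficient imiquimod libraries (adjusted p = 0.215). Mcm7, a subunit of the replicative helicase, was at 28.3, 4.21 and 31.7 against 8.51, 0 and 2.92 (adjusted p = 0.215), and Hnrnpr, an RNA-binding protein, at 18.9, 6.32 and 19.8 against 7.51, 5.59 and 0 (adjusted p = 0.194).

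Gene lists are described by counts and medians of the members that passed the filter, beside those of all tested genes, of which 10.8% had an unadjusted p under 0.05 (6.81% positive, 3.95% negative). A member that is low elsewhere passed only through the group where it is high, which by itself fixes the sign of its interaction, so these counts and medians describe the members that passed and support nothing about the rest. The lists of T cell signalling and quiescence had positive medians. Proximal T cell receptor signalling had 12 of 15 tested genes positive, of 22 listed (median 2.05, 0 called, 6 at an unadjusted p under 0.05). Its lowest p was that of Ptprc, the CD45 phosphatase, at 16.8, 22.1 and 9.90 in wild-type and 39.6, 76.9 and 42.2 in NF-kB1-deficient imiquimod libraries (2.20 ± 0.72, adjusted p = 0.208). The phosphatase gene Ptpn22 (4.49), the adaptor gene Skap1 (4.26) and the kinase gene Lck (2.93) were the next by p, while Csk, the kinase that restrains Lck, had -3.04. Quiescence and naive T cell regulators had 20 of 23 positive, of 27 listed (median 1.76, 9 at an unadjusted p under 0.05), with Btg1 called. Il7r, the interleukin 7 receptor (2.37 ± 0.95, adjusted p = 0.320), and Foxo1, a transcription factor of quiescence (3.53), were not called.

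Cytokine receptors and SOCS genes had 10 of 11 positive, of 26 listed (median 2.04, 0 called, 2 at an unadjusted p under 0.05), led by Il7r and by Tgfbr2, a TGF-beta receptor chain (3.71, adjusted p = 0.337). The interferon receptor genes Ifngr1 (2.04) and Ifnar2 (2.96) were positive and Stat3 (-0.73) negative, also uncalled. Type I interferon response genes had 12 of 12 positive, of 35 listed (median 1.88, or 2.17 over the 9 genes with no group at 0; 0 called, 5 at an unadjusted p under 0.05). Sp100 led these. The interferon-induced genes Slfn5 (2.25), Ifi47 (2.81) and Ifi203 (2.17) also had an unadjusted p under 0.05, and the smallest values were those of Isg20 (0.14) and Ifi209 (0.21), none of them called. Of the 10 tested genes of MHC class I and peptide loading 6 were positive (17 listed; median 0.43, 3 at an unadjusted p under 0.05 in either direction), a median that turned to -0.22 without wild-type imiquimod replicate 3. There H2-K1 and the light chain gene B2m (1.18, adjusted p = 0.257) were positive and Pdia3, a peptide-loading chaperone, negative (-3.81 ± 1.48, adjusted p = 0.300).

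Immediate early genes had 7 of 9 positive, of 24 listed (median 1.65, or 1.31 over the 7 with no group at 0; 2 at an unadjusted p under 0.05), among them Dusp2 and the uncalled Ier5 (2.31) and Junb (1.23), a subunit of the AP-1 factor, while Klf2, a factor of T cell trafficking, had -1.15. Of the PI3 kinase subunits and brakes 5 of 8 were positive, of 20 listed (median 1.53, 3 at an unadjusted p under 0.05), led by Pik3cd, the lymphocyte catalytic subunit (2.51 ± 1.06, adjusted p = 0.337). Among long noncoding RNAs 7 of 8 were positive, of 20 listed (median 1.29, 3 at an unadjusted p under 0.05). These 3 were the called Malat1, Zfas1 (3.97, adjusted p = 0.290) and Kcnq1ot1 (2.54, adjusted p = 0.337). Neat1 was also positive (2.01, adjusted p = 0.698). The gamma delta T and T cell identity list had 4 of 6 positive, of 18 listed (median 0.97, 2 at an unadjusted p under 0.05). That median was 0.16 without NF-kB1-deficient sham replicate 2 and 1.61 without NF-kB1-deficient sham replicate 1. Tcrd had 1.74 ± 0.61 (adjusted p = 0.257), with 14.1, 30.5 and 19.8 in wild-type imiquimod and between 40.3 and 76.8 in the other 9 libraries. The 2 tested genes of the Ms4a4 and Ms4a6 list, Ms4a4b (1.53 ± 0.50, adjusted p = 0.208) and Ms4a6b (2.10), and the 4 of the type 1 and cytotoxic list, led by Cd27, were all positive.

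The lists of growth and division had negative medians. Mitosis and proliferation had 6 of 7 negative, of 44 listed (median -1.99, 0 called, 3 at an unadjusted p under 0.05 in either direction), led by the H2A.Z histone gene H2afz (-2.17 ± 0.92, adjusted p = 0.337), and including Birc5, the gene of survivin (-3.72), and Top2a (-2.32). The positive member, Smc4 (1.30 ± 0.57, adjusted p = 0.362), had the next lowest p after H2afz. DNA replication had 10 of 11 negative, of 37 listed (median -1.90, or -1.89 over the 7 genes with no group at 0; 0 called, 3 at an unadjusted p under 0.05), with Lig1, Mcm7 and the helicase gene Hells lowest in p. Hells was listed at 0 in all 3 libraries of NF-kB1-deficient imiquimod and was at 41.9, 20 and 8.36 in wild-type imiquimod. With no filter, over every member above 0 in any library, the medians were -0.85 for mitosis and -0.88 for DNA replication. Ribosome biogenesis and nucleolus had 9 of 10 negative, of 44 listed (median -1.63, or -0.79 without NF-kB1-deficient sham replicate 3; 3 at an unadjusted p under 0.05). Ncl was called, while Rrs1, a ribosome assembly factor (-4.19), and Npm1, nucleophosmin (-1.74), were not.

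Histone variants and HMG proteins (12 of 18 negative, median -1.22), oxidative phosphorylation (22 of 29, median -1.0), tubulins and stathmin (6 of 8, median -0.95), cytosolic and mitochondrial chaperones (13 of 18, median -0.89) and endoplasmic reticulum chaperones (12 of 15, median -0.75, or -0.65 over the 14 with no group at 0) also had negative medians. At an unadjusted p under 0.05 were 3 of the histone and HMG genes, 2 of oxidative phosphorylation, 1 of the tubulin list, 4 of the cytosolic and 2 of the endoplasmic reticulum chaperones. In that order these were 16.7%, 6.9%, 12.5%, 22.2% and 13.3% of the tested members, beside 10.8% of all tested genes. All were negative except 1 of oxidative phosphorylation, Sdha (3.36, adjusted p = 0.449). Tuba1b was the called member of these lists. Tuba1a had the opposite sign and was not called (2.97, adjusted p = 0.510). Slc25a4, an ADP/ATP carrier of mitochondria, led oxidative phosphorylation (-3.77 ± 1.48, adjusted p = 0.304). Cct8, a subunit of the chaperonin that folds tubulin and actin, led the cytosolic chaperones (-2.77 ± 1.11, adjusted p = 0.320). Proteasome subunits had a median of -0.98 with 6 of 10 negative, led by Psma4 (-3.70 ± 1.58, adjusted p = 0.337).

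Other lists were mixed. Splicing factors and hnRNPs had 28 of 45 negative (median -0.48, or -0.42 over the 44 with no group at 0), with Rbm25 called in the positive direction. Actin and actin-binding proteins had 20 of 30 positive (median 0.62, but 0.04 without NF-kB1-deficient sham replicate 2 and 0.12 without wild-type imiquimod replicate 3), with Tagln2 called in the negative direction. Cytosolic ribosomal proteins had 37 of 67 negative and a median of -0.11, which was 0.04 with equal totals and 0.18 with quantile normalization. Their lowest p belonged to Rps13 (-3.56 ± 1.55, adjusted p = 0.362). Translation factors had a median of -0.44 (14 of 22 negative), led by Eif3a (-2.19 ± 0.84, adjusted p = 0.290), and the median turned to 0.15 without wild-type sham replicate 3 and to 0.04 with no filter. Chromatin regulators had 16 of 21 positive (median 0.50), led by the histone methyltransferase gene Kmt2a (3.93 ± 1.53, adjusted p = 0.300). Homing receptors and integrins had 11 of 14 positive (median 0.60), from Ccr9, a gut-homing chemokine receptor (3.53 ± 1.18, adjusted p = 0.215), to Cd44, an adhesion receptor of activated T cells (-3.86 ± 1.61, adjusted p = 0.337). Activation and effector surface markers, which also hold Cd44, had 6 of 10 negative (median -0.61, which turned to 0.10 without wild-type imiquimod replicate 1). Of the glycolysis list Ldha, lactate dehydrogenase A (-1.83 ± 0.91, adjusted p = 0.456), and Pkm (-0.50) were tested.

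List medians also moved by over 1.5 times in other settings. With a pseudocount of 10 the median was 0.57 for proximal T cell receptor signalling, 0.49 for quiescence, 0.74 for the interferon list and 0.71 for cytokine receptors, while that of all genes was -0.01. Without wild-type imiquimod replicate 1 it was -0.52 for tubulins, -1.44 for endoplasmic reticulum chaperones, -0.58 for the proteasome, 0.38 for homing receptors and 0.81 for chromatin regulators. Without wild-type imiquimod replicate 3 it was -2.09 for tubulins and 0.21 for chromatin regulators, and without wild-type imiquimod replicate 2 it was -3.06 for DNA replication and 0.66 for NF-kB targets. Without wild-type sham replicate 3 it was -0.39 for cytosolic and -1.37 for endoplasmic reticulum chaperones. Without NF-kB1-deficient sham replicate 2 it was -1.58 for oxidative phosphorylation and -0.26 for splicing factors, which had -0.25 without NF-kB1-deficient sham replicate 1.

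**Figure D4:**
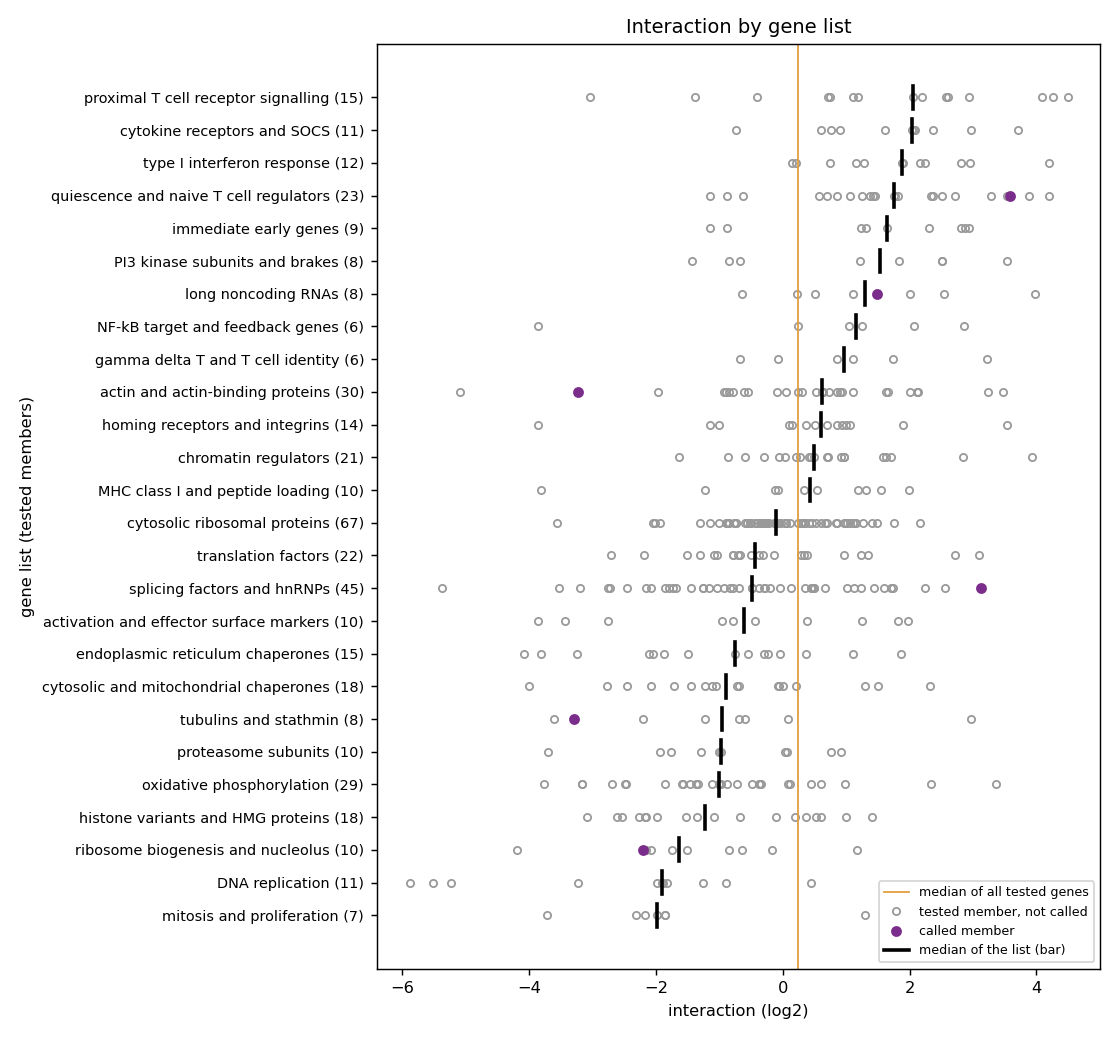
Interaction on the log2 scale (x axis) of the tested members of 26 gene lists (y axis, with the number tested); circles are members, filled where called, bars are list medians, and the vertical line is the median of all tested genes at 0.24. Medians run from -1.99 for mitosis and proliferation to 2.05 for proximal T cell receptor signalling, and members spread widely within each list.

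The NF-kB genes themselves gave no call. Nfkb1, the gene named by the genotype, was at 6.71, 4.38 and 1.24 in wild-type sham, 8.82, 1.09 and 2.52 in NF-kB1-deficient sham, 7.34, 21.0 and 0 in wild-type imiquimod and 5.41, 6.64 and 5.84 in NF-kB1-deficient imiquimod libraries. The groups overlapped (interaction 0.41 ± 1.68, adjusted p = 0.950), and since a 3' tag can lie outside a deleted part these values check nothing about the labels. Nfkbia, whose window holds a kB consensus, printed above, was at 50.7, 36.6 and 40.8 in wild-type sham, 20.4, 22.6 and 25.7 in wild-type imiquimod, 25.4, 52.0 and 52.8 in NF-kB1-deficient sham and 67.2, 47.5 and 31.8 in NF-kB1-deficient imiquimod libraries. The genotypes of Nfkbia were apart under imiquimod, but its interaction did not pass (1.04 ± 0.68, adjusted p = 0.607). Ikbkb, an IkB kinase (1.58 ± 1.74, adjusted p = 0.808), and Bcl10, an adaptor of antigen receptor signalling to NF-kB (0.09 ± 1.84, 0.987), completed the 4 tested of 20 subunits and inhibitors.

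Of 20 NF-kB target and feedback genes 6 were tested, 5 of them positive (median 1.15, 0 called). Irf1, an interferon regulatory factor, was at 2.10, 7.37 and 1.98 in wild-type imiquimod and 31.5, 21.7 and 16.2 in NF-kB1-deficient imiquimod libraries (2.86 ± 1.16, adjusted p = 0.320). The cyclin gene Ccnd2 had 2.07 ± 1.12 (adjusted p = 0.510), the early activation marker Cd69 1.25 ± 1.55 (0.848) and the caspase-8 regulator Cflar 0.24 ± 1.52 (0.964), while Cd44 was negative. Of the IL-17 program 4 genes passed the filter: Il7r, the surface antigen gene Ly6c2 (3.41 ± 1.54, adjusted p = 0.363, but 1.70 and 0.766 without NF-kB1-deficient sham replicate 3), the scavenger receptor gene Cd163l1 (-0.85 ± 1.68, 0.893) and the transcription factor gene Maf (-0.40 ± 1.60, 0.949). Il17f, a cytokine of this subset, was under the filter and was listed at 0 in all sham libraries, at 0, 6.32 and 33.7 in wild-type imiquimod and at 5.51, 0 and 5.51 in NF-kB1-deficient imiquimod libraries, too few values to compare.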

How the data were processed

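The submitters deposited a table of log2 normalized read counts for 45796 genes in 12 libraries, made with a QuantSeq 3' kit per the labels' protocols and with genome build mm10 per the submitters' processing notes. The sources used here do not give the aligner, the counter or the scaling. Each log2 value the authors deposited was returned to the linear scale, a listed 0 staying 0. Under 20 reads, 71.0% to 80.3% of values were within 0.01 of a whole read, so reads were not recovered and no count test was run. No pair of libraries was identical (0 of 66), and 0 columns lacked a sample.

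Genes with a mean of at least 5 were kept (1571), and log2(value + 1) was fitted with limma 3.58.1 in R 4.3.3, with 1 coefficient per group and eBayes with trend and robust (8 residual and a median of 145 prior degrees of freedom). SE is the moderated standard error. P-values were adjusted over the 1571 genes by Benjamini-Hochberg. The steps were tested on simulated data in which all genes shared a common setting of spread, unlike these data. That test thus says nothing of the calls described here. Named genes are the called ones, the lowest p up to 10 per direction, the first gene of each list, and tested NF-kB and IL-17 genes; further list members were picked after their values were seen. The part described, the lists and the rule were chosen with earlier results of these data known. The kB consensus was chosen after a stricter and a looser pattern had been searched in the same windows.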

Additional observations from a re-analysis of the deposited data

Results flagged for a closer look

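In 7 genes the response to imiquimod differed between the genotypes by limma's test of the interaction, on the log2(normalized value + 1) scale and with 3 libraries in each of 4 groups. The values were 1.49 for Malat1, 3.59 for Btg1, 3.12 for Rbm25, -3.29 for Tuba1b, -2.40 for Serbp1, -2.21 for Ncl and -3.23 for Tagln2. Groups of 3 libraries are too small for a test of single outlying libraries, and none was made.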

How the results depend on the processing

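The count of 7 calls (3 positive, 4 negative) became 1 with no filter (1 positive, Malat1, and 0 negative; 336 of 9732 genes at an unadjusted p under 0.05), 13 with a mean of at least 20 (8 positive) and 0 (0 positive, 0 negative) in limma without trend or robust. The positive calls were 6 with equal totals and 7 with quantile normalization. The cause of these moves was not tested. Leaving out 1 library gave 2 to 12 calls (1 to 7 positive, 0 to 5 negative). The count was 2 without NF-kB1-deficient sham replicate 3 or wild-type imiquimod replicate 3, 4 without wild-type sham replicate 1 or NF-kB1-deficient imiquimod replicate 2, and 12 without wild-type imiquimod replicate 2. With pseudocounts of 0.1 and 10 it stayed at 7, and with values under 2 set to 0, an alternative chosen after seeing the data, it was 8.

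With the replicate number as a block 7 genes were called, the same 7. Deviations of same-numbered libraries correlated at -0.01 to 0.061 over 18 pairs, with 0 pairs over 0.1, so the numbers were not taken to pair libraries; 9 of 12 libraries correlated best with their own number, a hint from the data only.

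Uncalled genes near 0 changed sign. With 1 library left out Nfkb1 ranged from -0.84 to 1.39, Cflar from -0.83 to 0.97, Bcl10 from -0.98 to 1.28, Cd163l1 from -2.30 to 0.01 and Maf from -1.27 to 0.57. Nfkb1 was -0.12 with a pseudocount of 10, -0.35 with quantile normalization and -0.15 with library weights, Cflar -0.14 with quantile normalization and Maf 0.52 with values under 2 set to 0. The intervals were wide, and the part of depth in this was not tested. The median 95% interval of the interaction reached 3.12 to either side, so an uncalled gene is not shown to respond alike in both genotypes.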
